A study of Mus musculus with 2 samples.

Results

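The ubiquitin-conjugating (E2) enzymes are described here in the mouse lens, from RNA of P60 (postnatal day 60) and P7 (postnatal day 7) animals. The genes were chosen by name, as those to which the array's annotation gives a single symbol beginning with Ube2, apart from the mitotic enzyme gene Ube2c. This gave 32 of 18194 named genes, on 80 of 45101 probe sets. Of the 32, Ube2d-ps is a pseudogene, classed as a long non-coding RNA by RefSeq, and Ube2cbp encodes a protein named for binding Ube2c that is not itself a conjugating enzyme. Both ages were wild-type mice of the C57/BL6 strain with no treatment given in the labels. The lenses of each age were pooled, and each pool was read on 1 array, so the spread between animals cannot be seen, and the sources used here give neither the number of animals nor their sex. No test between the ages is possible. Every difference below compares 1 pool with 1 pool, and no p-value is given.

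Ubiquitin is joined to proteins by a relay. An E1 enzyme activates it, an E2 enzyme carries it on a catalytic cysteine, and an E3 ligase brings the loaded E2 to the substrate. The E2 largely sets what is built: chains through lysine 48 of ubiquitin send proteins to the proteasome, chains through lysine 63 serve DNA repair and signalling, and single ubiquitins mark histones. Some E2 enzymes carry the relatives SUMO, NEDD8 or ISG15 instead. In the lens, ubiquitin conjugation and the proteasome act in epithelial cells and in young fibre cells, which later lose their nuclei and organelles and cannot replace proteins.

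Values are MAS5 signal intensities on a linear scale. They are comparable between the ages for the same probe set, and not between genes. The floor was set at 103.9, the median over all probe sets and both arrays. Genes whose probe set passed it at 1 age or more are called measured. Ratios are log2 of P60 over P7 after lower values were raised to the floor. A ratio with 1 age under the floor is therefore a bound, and the difference may be larger. The lens identity of both pools was plain from their fibre cell markers, of which 13 of 13 named genes lay above the floor at both ages. Their summed intensities were 491484 at P60 and 496498 at P7. Of these genes 12 lay within 2-fold and 1 was lower, Caprin2 with 2114 at P60 and 28568 at P7. Lens epithelial markers summed to 132373 at P60 and 73185 at P7, to which Vim (50625 at P60 and 34930 at P7) gave much. Of the 11 measured 5 were at least 2-fold higher and 1 lower, Foxe3 with 110 at P60 and 288 at P7. Vascular endothelial markers summed to 1468 at P60 and 5941 at P7, with 5 and 12 of 15 above the floor and 8 of 13 measured at least 2-fold lower, and mitotic genes to 5527 at P60 and 12848 at P7, with 19 and 27 of 29 above it. Fewer cells of a type and less RNA per cell cannot be told apart in pooled tissue. The 5′ to 3′ signal ratio, which reflects how intact RNA and cDNA were, came to 0.606 at P60 and 0.785 at P7 for beta-actin. For Gapdh it was 1.29 at P60 and 1.39 at P7, a smaller difference. For the dap spike-in, which is not lens RNA, it was 0.0262 at P60 and 0.0995 at P7. The part of these differences in the ratios below was not tested.

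The upstream regions of a few E2 genes are given before their values. They belong to Ube2a, Ube2ql1 and Ube2d-ps, which are among the genes that read at least 2-fold lower at P60, and to Ube2b, the close relative of Ube2a. They also belong to Ube2h and Ube2q1, which had the ratios furthest above 0, and to Ube2s, a mitotic enzyme, with its partner Ube2c for comparison. Each is the 250 bases before an annotated transcript start, 5′ to 3′ on the gene's own strand, from RefSeq on GRCm38.p6, the build of the sequence table. The expression values themselves carry no coordinates. Capitals mark matches, on either strand, to 7 motifs, and adjoining matches run together. The GC box bound by Sp factors was searched as GGGCGG. The box bound by the factor NF-Y was searched as CCAAT, which also names it. The TATA box near some transcript starts was searched as TATAAA. The CHR element of cell cycle genes was searched as TTTGAA. The core of sites for ETS factors was searched as CCGGAAG. The response element for cyclic AMP was searched as TGACGTCA. The E-box, bound by factors of the clock and of cell growth among others, was searched as CACGTG.
Ube2a (chrX:36874045-36874294, plus strand): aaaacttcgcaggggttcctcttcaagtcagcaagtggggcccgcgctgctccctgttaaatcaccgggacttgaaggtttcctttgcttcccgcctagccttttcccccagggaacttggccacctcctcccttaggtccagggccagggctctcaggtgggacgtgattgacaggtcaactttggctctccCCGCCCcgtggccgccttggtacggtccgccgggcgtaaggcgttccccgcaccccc
Ube2b (chr11:52000787-52001036, minus strand): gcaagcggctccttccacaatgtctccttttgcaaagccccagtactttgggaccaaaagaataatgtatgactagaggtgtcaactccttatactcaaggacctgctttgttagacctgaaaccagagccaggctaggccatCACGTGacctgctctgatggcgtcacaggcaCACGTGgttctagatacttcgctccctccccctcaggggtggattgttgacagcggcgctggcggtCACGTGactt
Ube2b (chr11:52000492-52000741, minus strand): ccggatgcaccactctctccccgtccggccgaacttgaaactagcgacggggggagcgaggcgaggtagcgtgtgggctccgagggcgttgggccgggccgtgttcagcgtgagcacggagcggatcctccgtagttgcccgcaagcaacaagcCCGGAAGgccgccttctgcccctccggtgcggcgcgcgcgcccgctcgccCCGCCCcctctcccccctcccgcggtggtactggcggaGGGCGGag
Ube2ql1 (chr13:69739898-69740147, minus strand): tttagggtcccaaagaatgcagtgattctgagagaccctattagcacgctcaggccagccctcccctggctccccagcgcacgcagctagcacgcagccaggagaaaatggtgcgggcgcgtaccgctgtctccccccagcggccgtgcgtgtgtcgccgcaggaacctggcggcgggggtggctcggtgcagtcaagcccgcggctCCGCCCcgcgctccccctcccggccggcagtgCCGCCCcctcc
Ube2d-ps (chr11:5761900-5762149, plus strand): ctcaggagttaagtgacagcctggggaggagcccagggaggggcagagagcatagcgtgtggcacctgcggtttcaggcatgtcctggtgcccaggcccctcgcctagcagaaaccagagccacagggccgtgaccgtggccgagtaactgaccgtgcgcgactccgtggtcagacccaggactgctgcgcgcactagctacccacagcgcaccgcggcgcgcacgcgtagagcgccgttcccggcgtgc
Ube2h (chr6:30304540-30304789, minus strand): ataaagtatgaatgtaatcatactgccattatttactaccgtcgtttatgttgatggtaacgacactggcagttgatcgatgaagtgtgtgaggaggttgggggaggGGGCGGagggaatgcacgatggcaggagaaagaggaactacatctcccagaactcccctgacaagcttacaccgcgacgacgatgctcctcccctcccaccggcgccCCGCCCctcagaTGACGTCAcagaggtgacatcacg
Ube2q1 (chr3:89773359-89773608, plus strand): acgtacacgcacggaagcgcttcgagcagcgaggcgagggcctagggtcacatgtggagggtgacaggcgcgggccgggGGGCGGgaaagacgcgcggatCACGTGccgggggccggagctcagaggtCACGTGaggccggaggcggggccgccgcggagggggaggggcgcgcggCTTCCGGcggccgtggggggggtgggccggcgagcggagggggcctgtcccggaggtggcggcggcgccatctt
Ube2s (chr7:4812341-4812590, minus strand): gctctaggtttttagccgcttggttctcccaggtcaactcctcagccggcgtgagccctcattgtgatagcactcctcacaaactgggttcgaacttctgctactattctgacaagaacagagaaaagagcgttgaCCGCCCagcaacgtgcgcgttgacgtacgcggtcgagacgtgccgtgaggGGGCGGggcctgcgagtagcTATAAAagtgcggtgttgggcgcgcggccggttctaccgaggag
Ube2c (chr2:164769679-164769928, plus strand): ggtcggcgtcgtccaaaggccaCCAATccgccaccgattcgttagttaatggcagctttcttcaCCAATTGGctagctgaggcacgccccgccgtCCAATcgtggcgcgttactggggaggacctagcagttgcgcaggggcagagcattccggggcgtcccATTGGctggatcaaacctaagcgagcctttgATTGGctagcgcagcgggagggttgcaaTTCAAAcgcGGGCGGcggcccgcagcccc

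Ube2b has 2 annotated starts, shown upstream one first, and the upstream window of Ube2h is shown of its 2. The window of Ube2a holds 1 GC box, whereas the windows of Ube2b hold 3 E-boxes in the first and 2 GC boxes with 1 ETS core in the second. Ube2q1 has 2 E-boxes, 1 GC box and 1 ETS core. Ube2ql1 has 2 GC boxes, Ube2h has 2 GC boxes and the element for cyclic AMP, and Ube2d-ps has no match. Ube2c has 6 CCAAT matches, of which a pair overlaps, and 1 CHR element, the arrangement known from genes of the G2 and M phases. Its partner Ube2s has a TATA box and 2 GC boxes in this window and neither a CCAAT box nor a CHR element. No window was found for Ube2o and Ube2v2, which also read at least 2-fold lower at P60. Sequence was found for 26 of the 32 genes, in 35 windows. GC boxes stood in 25 of these 35 windows and in 32.7% of all 32851 windows, CCAAT boxes in 6 of 35 and 33.8%, ETS cores in 8 of 35 and 6.91%, CHR elements in 3 of 35 and 15.99%, TATA boxes in 2 of 35 and 12.4%, E-boxes in 2 of 35 and 6.02%, and the element for cyclic AMP in 1 of 35 (Ube2h) and 1.55%. The windows of the E2 genes had a median of 24 CpG sites and 69.2% G and C, against 6 and 52.4% over all windows. Matches describe letters in these windows, and binding was not measured.

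Of the 32 genes 30 were measured, 28 of them above the floor at both ages. At P60 5 of the 30 were at least 2-fold lower (16.7%) and 0 at least 2-fold higher. Over all 13029 measured genes 9.44% were at least 2-fold lower and 11.5% at least 2-fold higher. The remaining 25 E2 genes lay within 2-fold. Their log2 ratios had a median of -0.14 and an SD of 0.67 across the 30 genes, against 0.02 and 0.90 across all measured genes, and 11 lay above 0 and 19 below, against 6674 above and 6355 below over all measured genes. With 1 pool per age neither count can be tested. A guide to measurement error is how far a gene's own probe sets spread around each other in log2 ratio. That SD was 0.58 over 4239 genes and 0.62 over the 20 E2 genes that allow it. It leaves out differences between pools. Ratios of 17 of the 30 E2 genes (56.7%) were smaller than 0.58 in size, as were those of 57.1% of all measured genes. The smallest ratio counted as lower was that of Ube2d-ps and the largest that was not counted was that of Ube2h, 1.05 and 0.82 in size.

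**Figure D1:**
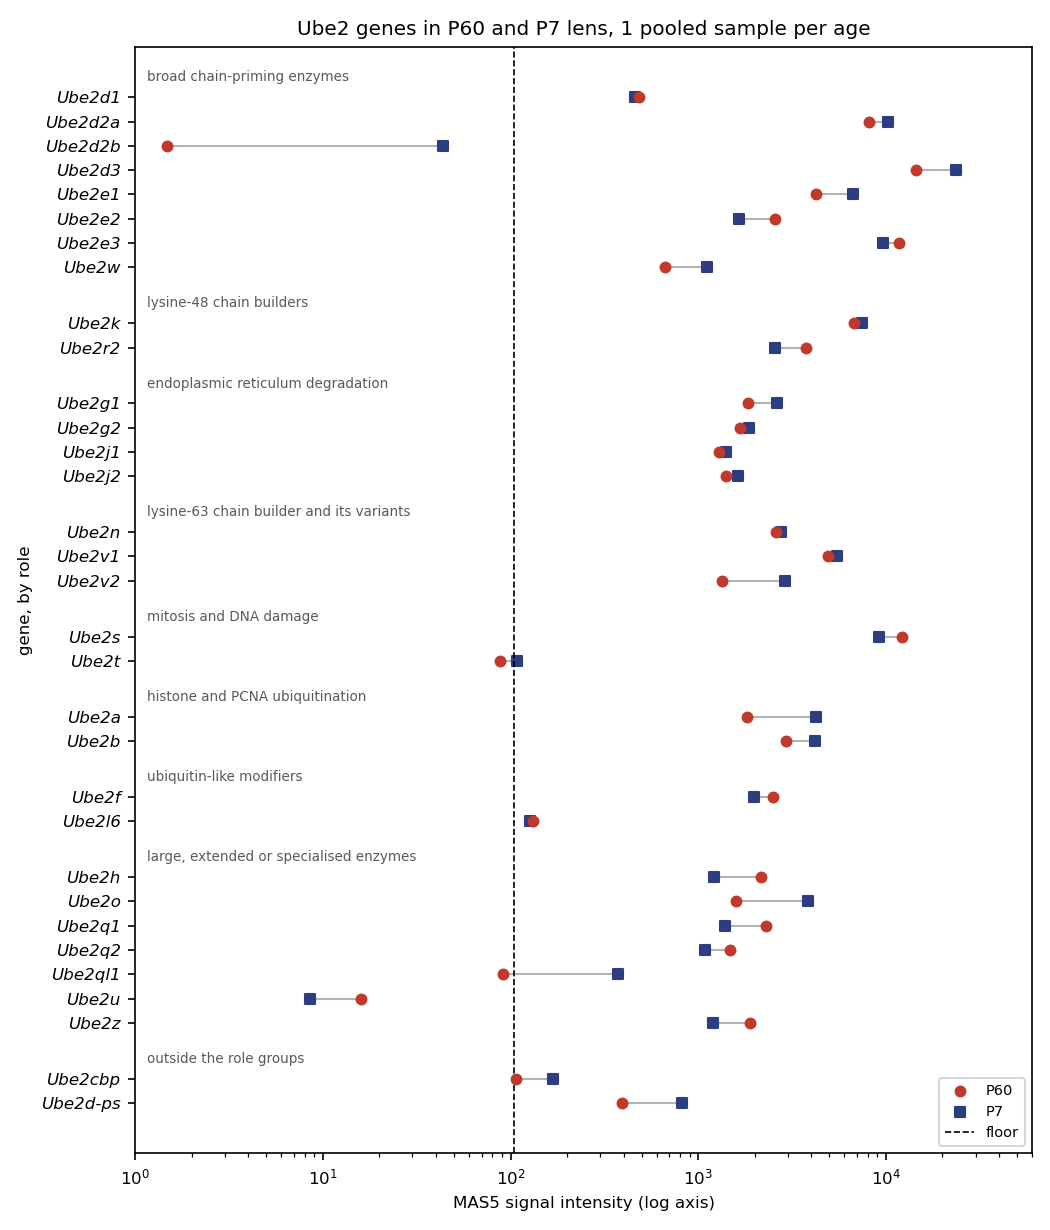
MAS5 signal intensity (log axis) of each Ube2 gene on its brightest probe set in the P60 pool (circles) and the P7 pool (squares), by role. The dashed line is the floor of 103.9, and Ube2o, Ube2a, Ube2v2, Ube2ql1 and Ube2d-ps have the P60 point at least 2-fold to the left of the P7 point.

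**Figure D2:**
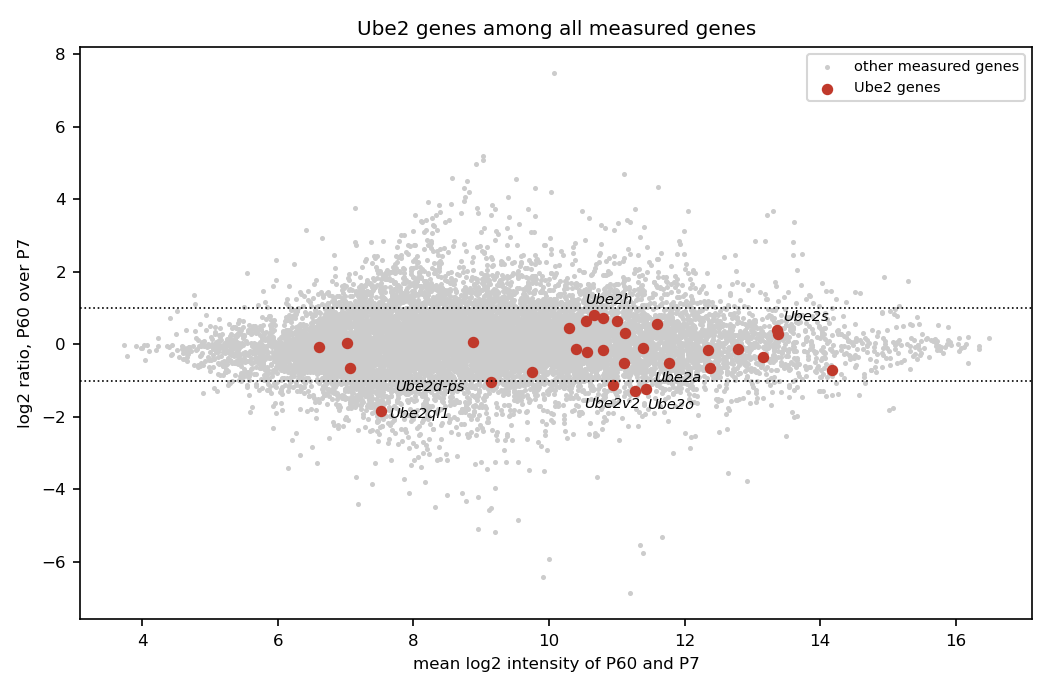
Log2 ratio of P60 over P7 against mean log2 intensity of both ages, for the Ube2 genes (large points) and all other measured genes (small points). Dotted lines mark 2-fold, and 25 of the 30 Ube2 genes lie between them.

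Ube2a and Ube2b are the mammalian counterparts of yeast Rad6. Both attach ubiquitin to histone H2B with the ligases Rnf20 and Rnf40, to the replication clamp PCNA with Rad18, and to proteins with destabilising N termini with Ubr1 and Ubr2. Ube2a read 1808 at P60 and 4216 at P7 and was 2.33-fold lower (log2 ratio -1.22). Its other probe set had 1407 at P60 and 1866 at P7, a ratio of -0.41, so the size of the difference depends on the probe set while both lie below 0. Ube2b read 2945 at P60 and 4171 at P7, a ratio of -0.50. Its other measured probe sets lay at 0.49 (2641 at P60 and 1884 at P7) and at -1.53 (257 at P60 and 745 at P7), on both sides of 0. The ligases that use these enzymes lay within 2-fold: Rnf20 had a ratio of -0.50, Rnf40 of 0.44, Ubr1 of 0.49 and Ubr2 of 0.46, and Rad18 was near the floor with 126 at P60 and 89.4 at P7. Ube2a lies on the X chromosome. Xist, the RNA that silences the second X chromosome in female cells, read 131 at P60 and 8002 at P7. Its other probe sets read 8.28 and 11.3 at P60, under the floor, and 1957 and 5284 at P7. The Y-linked gene Eif2s3y read 528 at P60 and 1490 at P7. The Y-linked Kdm5d had a ratio of 0.38 and the Y-linked Uty of 0.35, with -0.27 on the other measured probe set of Uty. Whether the sexes were mixed alike in both pools was not tested.

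Ube2n builds lysine-63 chains, and needs a partner that resembles an E2 but lacks the catalytic cysteine, Ube2v1 or Ube2v2. The pair with Ube2v2 extends the ubiquitin on PCNA after DNA damage, and the pair with Ube2v1 serves inflammatory signalling. Ube2v2 read 1342 at P60 and 2912 at P7 and was 2.17-fold lower. Its other measured probe sets had ratios of -0.58 (234 at P60 and 351 at P7) and -0.17 (106 at P60 and 119 at P7), below 0 but within 2-fold. Ube2n itself read 2608 at P60 and 2769 at P7, a ratio of -0.09, with its other probe set at 0.17. Ube2v1 read 4937 at P60 and 5458 at P7 (-0.14), and on a dimmer probe set 2178 at P60 and 4239 at P7 (-0.96), just short of 2-fold. All 3 genes of this group thus had ratios below 0 on their brightest probe sets, and only Ube2v2 passed 2-fold there. The ratios of Ube2n and Ube2v1 were smaller in size than the SD of 0.58 between probe sets. Among ligases that work with Ube2n, Traf6 was 2.58-fold lower on its brightest probe set (418 at P60 and 1078 at P7), with 4 others from -0.82 to 1.10, while Rnf8 (-0.51) and Rnf168 (0.56) lay within 2-fold.

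Ube2o is a large enzyme that acts as E2 and E3 in 1 chain and that, in mouse reticulocytes, marks ribosomal proteins for destruction. It read 1588 at P60 and 3839 at P7 and was 2.42-fold lower, on its only probe set. Ube2h works with the CTLH ligase complex, is likewise prominent in red cell precursors, and went the other way. It read 2146 at P60 and 1214 at P7, a ratio of 0.82, with its other measured probe sets at 0.82 and 0.21. Globin genes that share probe sets were lower at P60: on the 4 such probe sets ratios ran from -7.04 to -2.17, for example 145 at P60 and 18993 at P7. In the erythroid marker list, read on probe sets of a single gene, 0 of 6 measured genes were 2-fold lower and 1 was 2-fold higher, with a median of -0.41 and 4 of the 6 below 0. Hba-a2 read 18.9 at P60, under the floor, and 179 at P7, and Hbb-b2 read 5.96 at P60, also under it, and 173 at P7. The ratios of Hba-a2 (-0.78) and Hbb-b2 (-0.74) are bounds. Their P7 values were less than 2-fold above the floor, so neither gene could count as 2-fold lower. The 11 named genes summed to 6217 at P60 and 5059 at P7, a sum to which Tfrc (3016 at P60 and 1582 at P7) and Fech (1339 at P60 and 619 at P7), which other cells also express, gave much. The part of red cells in the Ube2o value was not tested. The CTLH subunit genes Maea (-0.27), Rmnd5a (0.17) and Ranbp9 (0.95, and 0.36 on its other probe set) lay within 2-fold.

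Ube2ql1, a little-studied relative of the Ube2q enzymes, had the lowest ratio of the 30 genes. It read 90.6 at P60, under the floor, and 373 at P7, and was at least 3.59-fold lower. Its second probe set was under the floor at both ages, so the value rests on 1 probe set. The better known Ube2q1 and Ube2q2 had ratios above 0. Ube2q1 read 2304 at P60 and 1380 at P7 (0.74, and 0.82 on its other probe set). Ube2q2 read 1469 at P60 and 1080 at P7 (0.44). Ube2z, which receives ubiquitin from the E1 enzyme Uba6 and not from Uba1, read 1876 at P60 and 1191 at P7, a ratio of 0.66 with its other measured probe set at 0.43. Uba6 itself had a ratio of 0.86 (1172 at P60 and 644 at P7), and its 3 other measured probe sets ranged from -0.09 to 1.45. Ube2h, Ube2q1, Ube2z and Ube2e2 had the 4 highest ratios of the E2 genes. Ube2u was under the floor at both ages, with 16.02 at P60 and 8.54 at P7.

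The genes for enzymes of mitosis and of replication-linked repair, Ube2s and Ube2t, lay within 2-fold on their brightest probe sets. Ube2s elongates lysine-11 chains on substrates of the anaphase-promoting complex after Ube2c has started them. On its brightest probe set, which may also read near-identical sequences, Ube2s had 12152 at P60 and 9194 at P7, a ratio of 0.40. Its other probe set had 986 at P60 and 119 at P7 and was 8.30-fold higher, a ratio of 3.05 that is the largest of any probe set of the E2 genes in either direction. Both probe sets lay above 0 and they differed in size by more than the SD between probe sets. Ube2c read 125 at P60 and 590 at P7, 4.73-fold lower. Of 27 measured mitotic genes, which include Ube2c, 11 were 2-fold lower and 0 higher, with a median of -0.95. Cdc20 (-0.85), Fzr1 (-0.21), Anapc11 (-0.31) and Anapc2 (0.21), activators and subunits of the anaphase-promoting complex, lay within 2-fold. Ube2t, the E2 of the Fanconi repair pathway, read 88.3 at P60 and 108 at P7, at the floor, and its ligase gene Fancl had a ratio of -0.64.

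The broad enzymes of the Ube2d and Ube2e families place the first ubiquitin on many substrates. Among the 7 measured genes of this group, which include Ube2w, an enzyme that modifies protein N termini, 0 passed 2-fold and the median ratio was -0.35. Ube2d3 read 14477 at P60 and 23732 at P7 (-0.71). Ube2d2a read 8087 at P60 and 10279 at P7 (-0.35). Ube2d1, on a single probe set, read 482 at P60 and 460 at P7 (0.07). Probe sets of Ube2d3 ranged from -1.35 to 0.42 over 7 and those of Ube2d2a from -0.55 to 0.38 over 4, so both genes had probe sets on both sides of 0. The proteins of this family are nearly the same in sequence, and probe sets can read more than 1 of its members. The pseudogene Ube2d-ps had 394 at P60 and 814 at P7 and was 2.07-fold lower on the brightest probe set, but on the other had 384 at P60 and 299 at P7, a ratio of 0.36. Ube2d2b was under the floor at both ages, with 1.48 at P60 and 43.8 at P7. Within the Ube2e family the ratios lay on both sides of 0. Ube2e1 read 4230 at P60 and 6697 at P7 (-0.66). Ube2e2 read 2566 at P60 and 1644 at P7 (0.64). Ube2e3 was on the same side as Ube2e2, with 11701 at P60 and 9661 at P7 (0.28, and 0.09 on its other probe set). Ube2w read 663 at P60 and 1118 at P7 (-0.75), with its other measured probe set at -0.24.

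**Figure D3:**
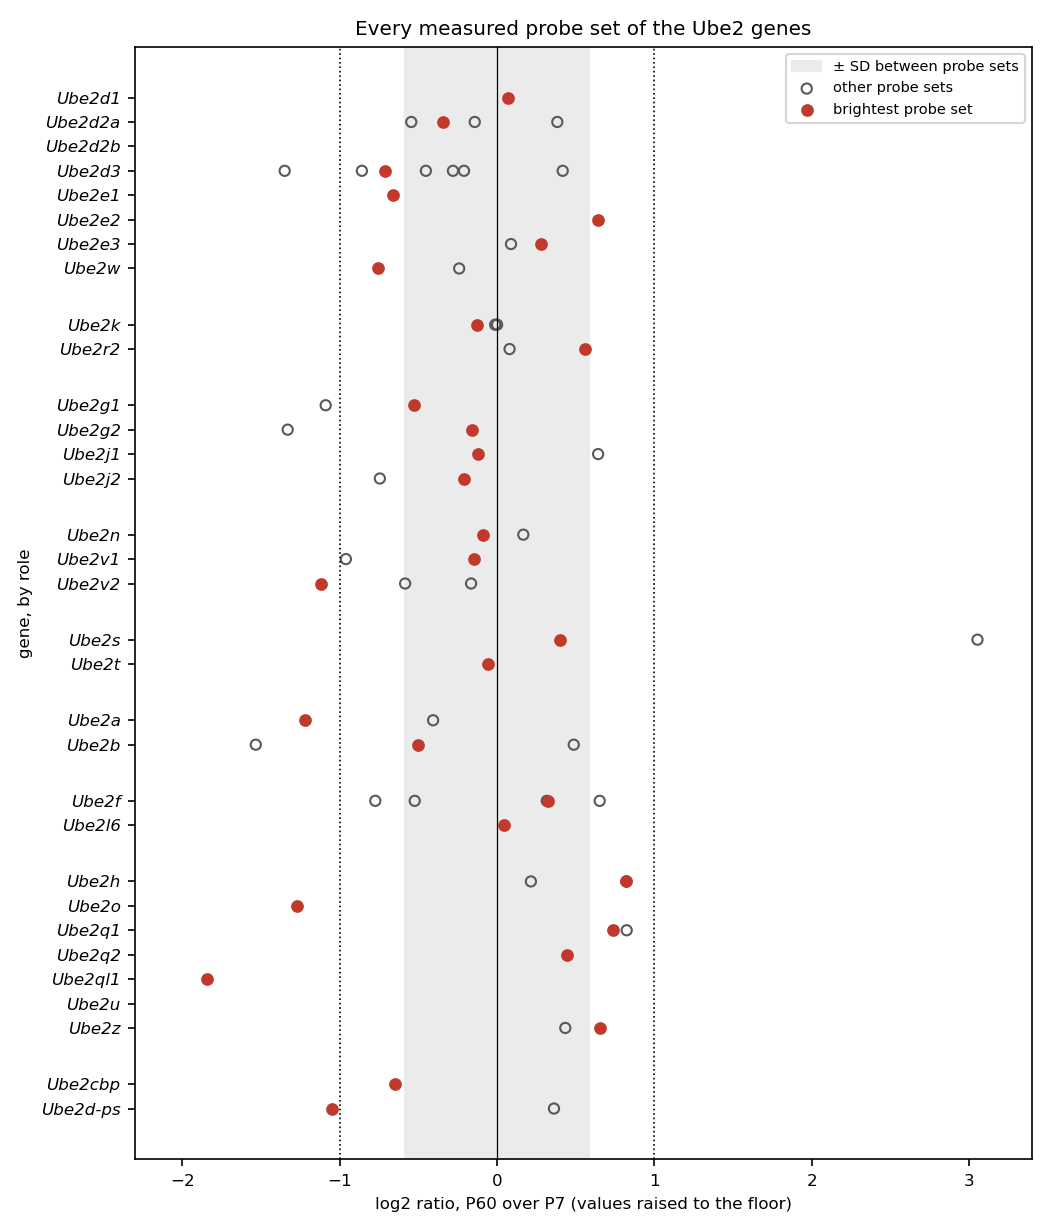
Log2 ratio of P60 over P7 for every measured probe set of each Ube2 gene, with the brightest probe set filled and the others open. The grey band spans 0.58 on either side of 0, the SD within genes, dotted lines mark 2-fold, and the open point at 3.05 belongs to Ube2s.

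Enzymes that extend lysine-48 chains or serve protein quality control at the endoplasmic reticulum lay within 2-fold on their brightest probe sets. Ube2k, which builds lysine-48 chains without a ligase in the test tube, read 6794 at P60 and 7413 at P7 (-0.13), with its other measured probe sets at -0.01 and 0.00. The former is a bound, from 5.97 at P60, under the floor, and 105 at P7. Ube2r2, a partner of cullin ligases, read 3767 at P60 and 2555 at P7 (0.56), with its other probe set at 0.08, and its close relative Cdc34 had a ratio of -0.54 (2581 at P60 and 3765 at P7). The 4 genes of endoplasmic reticulum degradation all had ratios below 0, as did 6355 of all 13029 measured genes. Each of the 4 ratios was within 2-fold and smaller in size than the SD of 0.58 between probe sets. Ube2g1 read 1836 at P60 and 2643 at P7 (-0.53). Ube2g2 read 1677 at P60 and 1870 at P7 (-0.16). The membrane-anchored Ube2j1 read 1292 at P60 and 1406 at P7 (-0.12), and Ube2j2, also anchored in the membrane, 1404 at P60 and 1622 at P7 (-0.21). The dimmer probe sets of Ube2g1 (-1.09), Ube2g2 (-1.33) and Ube2j2 (-0.75) had ratios further below 0, and that of Ube2j1 had a ratio above 0 (0.64). The value for Ube2j2 is a bound, from 58.3 at P60, under the floor, and 174 at P7. The ligase gene Syvn1, which works with Ube2j1, had a ratio of -0.09.

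Of the enzymes for ubiquitin-like proteins, Ube2f and Ube2l6 were measured. Ube2f loads NEDD8 onto the cullin Cul5 together with the RING protein Rnf7. It read 2496 at P60 and 1992 at P7, a ratio of 0.33, with 4 other measured probe sets from -0.77 to 0.65. The lowest is a bound, from 56.8 at P60, under the floor, and 178 at P7. The partners of Ube2f had ratios below 0: Rnf7 read 3352 at P60 and 9917 at P7 and was 2.96-fold lower, with -0.96 on its other probe set. Cul5 read 473 at P60 and 960 at P7 and was 2.03-fold lower, with its other probe sets at -0.92 and -0.40. Dcun1d1, a cofactor of NEDD8 ligation, was 2.04-fold lower on the brightest of its 4 measured probe sets, and the others ranged from -0.87 to 1.18. Ube2l6, the E2 for the interferon-induced modifier ISG15, was close to the floor with 132 at P60 and 127 at P7 (0.05), and Uba7, its E1, had a ratio of 0.45. In the same pools 5 of 15 measured interferon response genes were 2-fold higher and 2 lower, against 11.5% and 9.44% of all measured genes. Of the higher genes, Oas1a, Ifit3, Ifit2 and Gbp2 were under the floor at P7, and Ifi27 read 2156 at P60 and 160 at P7. The largest ratio in size was below 0, that of Rsad2, with 114 at P60 and 2694 at P7 (-4.56). Ube2cbp was also near the floor, with 107 at P60 and 168 at P7.

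The rest of the pathway is given for comparison with the same background of 9.44% of genes lower and 11.5% higher. Of the 10 listed E1 genes 7 were named by a single symbol and measured, and none passed 2-fold (median -0.09). Uba6 (0.86) and Uba7 (0.45) had the highest and Nae1 (-0.40) and Uba3 (-0.24), the subunits of the NEDD8 E1, the lowest ratios. Of 11 measured ubiquitin and ubiquitin-like modifiers 1 was 2-fold higher and 2 lower (median -0.44). Map1lc3a (1.58, and 0.60 on its other probe set) and Gabarap (0.63) of autophagy lay highest, and Urm1 (-1.71), a modifier with a role in transfer RNA thiolation, and Map1lc3b (-1.15) lowest. The 4 other measured probe sets of Urm1 ranged from -1.10 to 0.33, on both sides of 0. Of 8 E2 enzymes or variants with other names 2 were 2-fold higher and 0 lower (median -0.12). Atg3, the E2 of the autophagy modifiers, read 23567 at P60 and 9120 at P7 (1.37, and 0.81 on its other probe set), and Uevld, a variant without a catalytic cysteine, 305 at P60 and 74.4, under the floor, at P7 (1.55, and 0.23 on its other probe set). Cdc34 and Tsg101 (-0.51), a variant that acts in endosomal sorting, had the lowest ratios.

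Of 51 measured E3 ligase genes 5 were 2-fold lower (9.80%) and 0 higher, with a median of 0.03. Rnf7 and Traf6 lay lowest, and Ranbp9 and Rbck1 (0.89), a subunit of the linear chain assembly complex, highest. Deubiquitinating enzymes, which remove ubiquitin, had a median of 0.38, and 6 of 34 measured were 2-fold higher (17.6%) and 0 lower. Usp48 read 4072 at P60 and 820 at P7 (2.31, with its other probe sets at 0.80 and 0.44), and Tnfaip3, a brake on inflammatory signalling, 500.5 at P60 and 174 at P7 (1.53). Among the other genes counted as higher, Usp4 lay close to the threshold (1.01). Brcc3 had 1.12 on its brightest probe set, and its other measured probe sets ranged from -1.52 to 0.04. Usp16 (-0.77), which acts on histone H2A, and Usp24 (-0.70) had the lowest ratios. The difference between the median of this list and that of the E2 genes was not tested.

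**Figure D4:**
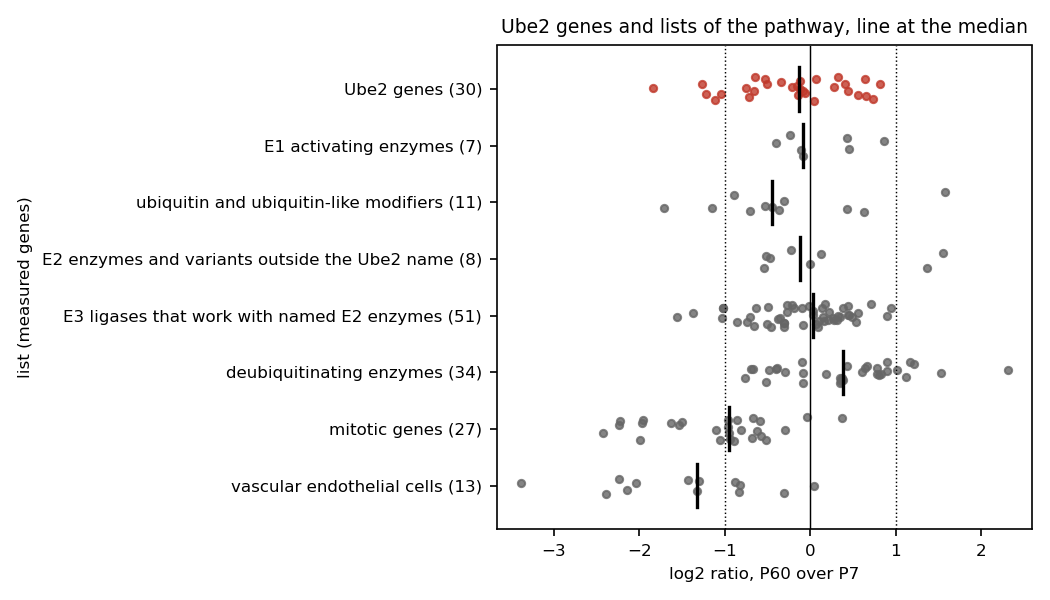
Log2 ratio of P60 over P7 for the measured Ube2 genes (top row) and for lists of the ubiquitin pathway, mitotic genes and vascular endothelial markers, 1 point per gene with the median as a line. Ube2 genes have a median of -0.14, deubiquitinating enzymes of 0.38 and mitotic genes of -0.95.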

How the data were processed

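RNA of pooled lenses of each age was hybridised to 1 Affymetrix mouse array. The deposited file holds linear intensities, made with MAS5 per the submitters' processing notes. With the lowest and highest 2% of values trimmed, both arrays had a mean of 500.0. The sources used here do not give the software version, the scaling settings or detection calls. At P60 47.8% of probe sets lay above the floor and at P7 52.2%.

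A platform annotation gave a single symbol to 34958 probe sets, and all 32 Ube2 genes matched a RefSeq gene by gene number. Each gene was read on its brightest probe set, by mean log2 intensity of P60 and P7. Other measured probe sets are given for the Ube2 genes and for some of the pathway genes. Probe sets whose name ends in s, x or a before "at" can read several transcripts. Higher and lower mean at least 2-fold. There is no replicate, and having 2 arrays limits the precision throughout.

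The members, gene lists, role groups, motifs and partner genes named beside an enzyme were chosen with earlier results of these data known. Of each pathway list the 2 highest and 2 lowest genes are named. The counting code was run on simulated data, with changes well past 2-fold planted in genes well above the floor. That run checks the code and cannot show how reliable calls near 2-fold or near the floor are. Python 3.11.15, numpy 2.4.6 and pandas 2.3.3 were used. There were 13 alternatives, covering the floor, the pseudocount, the filter, the choice of probe set and the scaling.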

Additional observations from a re-analysis of the deposited data

Results flagged for a closer look

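Ube2l3, the E2 of HECT and RBR ligases, has 4 probe sets that the annotation shares among 5 symbols, so it is not among the 32 genes, and signal on these probe sets stood above the floor outside the comparison. They read 2855 at P60 and 6053 at P7, 1914 at P60 and 1589 at P7, 3618 at P60 and 5818 at P7, and 2165 at P60 and 2597 at P7. The log2 ratios ran from -1.08 to 0.27, 3 of the 4 below 0, and which of the 5 genes the signal comes from was not tested.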

How the results depend on the processing

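No paired analysis was possible because each age has 1 array. Under the 13 alternatives no more than 1 E2 gene was 2-fold higher and from 2 to 6 were lower. The same held without Ube2d-ps and Ube2cbp, a setting added after seeing the data, with 4 lower and 0 higher. The share of all genes that were lower moved too. With no filter and a pseudocount of 1, 6 of 32 E2 genes were lower, against 19.9% of all genes. With a floor of 32.1 it was 5 of 31, against 15.8%. With the median ratio over a gene's probe sets it was 2 of 30, against 8.36%. The larger share of lower E2 genes was thus lost or nearly lost in these settings. With no floor and a pseudocount of 16 it was narrower, at 5 of 30 against 14.1%. With the dimmest probe set it was 3 of 19, against 10.7%. In the other settings the larger share stayed, on small counts throughout. With the dimmest probe set of each gene the counts were 1 higher and 3 lower among 19 measured, and the median was 0.079. With the median ratio over a gene's probe sets they were 1 higher and 2 lower, and with plain probe sets only 1 was higher. The higher gene was Ube2s in each of these settings. Scaling on the 500 genes nearest in signal moved the median to -0.26 and that of all genes to -0.08. The medians of the other settings stayed within 0.11 of the reported one. Ube2o stayed 2-fold lower in 13 of 13 alternatives, Ube2a in 11 of 13, Ube2ql1 in 10 of 11, Ube2v2 in 10 of 12 and Ube2d-ps in 10 of 13. These tallies do not rank the genes by reliability. Ube2o has 1 probe set, so the alternatives that change the probe set could only return its main value. Totals under 13 leave out settings in which the gene had no value. Ube2d-ps reversed to 0.36 with the dimmest probe set. The causes were not tested, beyond that other probe sets were read. Genes near the floor, Ube2l6, Ube2t and Ube2cbp, are limited by signal over background.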
